A study of Mus musculus with 6 samples.

Results

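The genes described here are 37 markers of the retinal blood vessels, 21 of endothelial cells, which line the vessels, and 16 of mural cells, the pericytes of capillaries and the smooth muscle cells of arterioles. They were chosen by name as cell type markers, and 36 of them had a probe with a single gene symbol, of 19057 such genes on the array. The exception was the endothelial gene Ly6a, which is not analysed here. Each gene was represented by its probe with the highest mean, and 32 of the 36 passed a filter on dim probes, 19 endothelial and 13 mural, of 12046 genes tested.

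RNA of the central retina was measured on Illumina single-colour bead arrays. There were 3 samples from mice aged 8 months and 3 from mice aged 2 months, all of the strain rd1/rd1 and untreated. The rd1 mutation, shared by both ages, lies in Pde6b, a gene of the rod phosphodiesterase, and makes rods and later cones degenerate. There was no group with an intact retina, so the comparison is between ages within the degenerating retina. A sample was a pool of 3 to 6 punches with a diameter of 1.5 mm, the number of animals per pool is not given, and p-values measure the spread between such pools. The sample titles number the 2 month samples 1, 2 and 3, but the descriptions give 1, 1 and 2, so that the first 2 may be repeats of 1 sample. They differed from each other by an SD of 0.187 over all tested genes. The other pairs of 2 month samples differed by 0.167 and 0.205, and pairs of 8 month samples by 0.146 to 0.158. The first 2 were counted as separate samples. If they are repeats, the 2 month group has 2 samples, and averaging them likewise gave 0 calls among the 32 genes.

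Retinal capillaries form the inner blood-retina barrier, in which endothelial cells are sealed by tight junctions, carry specific transporters and lack fenestrations. Pericytes are recruited by endothelial platelet-derived growth factor, stabilise the capillary and sustain the barrier, and smooth muscle cells set the calibre of arterioles. Retinal vessels are known to narrow and thin out as photoreceptors are lost in inherited degeneration, and the comparison of 8 with 2 months bears on the RNA of their cells at a later and an earlier age of that degeneration.

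Of the 32 tested genes, 0 passed in limma, where a call needed a p below 0.05 after Benjamini-Hochberg adjustment over the 12046 genes. Over the whole array 27 genes passed, or 0.224% of those tested, 0.158% higher and 0.0664% lower at 8 months. Before adjustment, 0 endothelial genes and 2 mural genes, Vtn and Abcc9, were below a limma p of 0.05, both lower, while 10.4% of all tested genes were below it, 5.10% higher and 5.34% lower. Abcc9 passed the filter on dim probes only with its 2 month values, which were the higher ones. The endothelial genes had a median change of −0.002 on the log2 scale, with 9 positive and 10 negative changes. The mural genes had a median change of −0.07, with 3 positive and 10 negative changes. The median of the 12046 changes was 0.0005, and 49.8% of them were negative. The difference between the endothelial and the mural median was not tested. In whole tissue, a smaller number of vascular cells and less RNA per cell cannot be told apart.

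**Figure D1:**
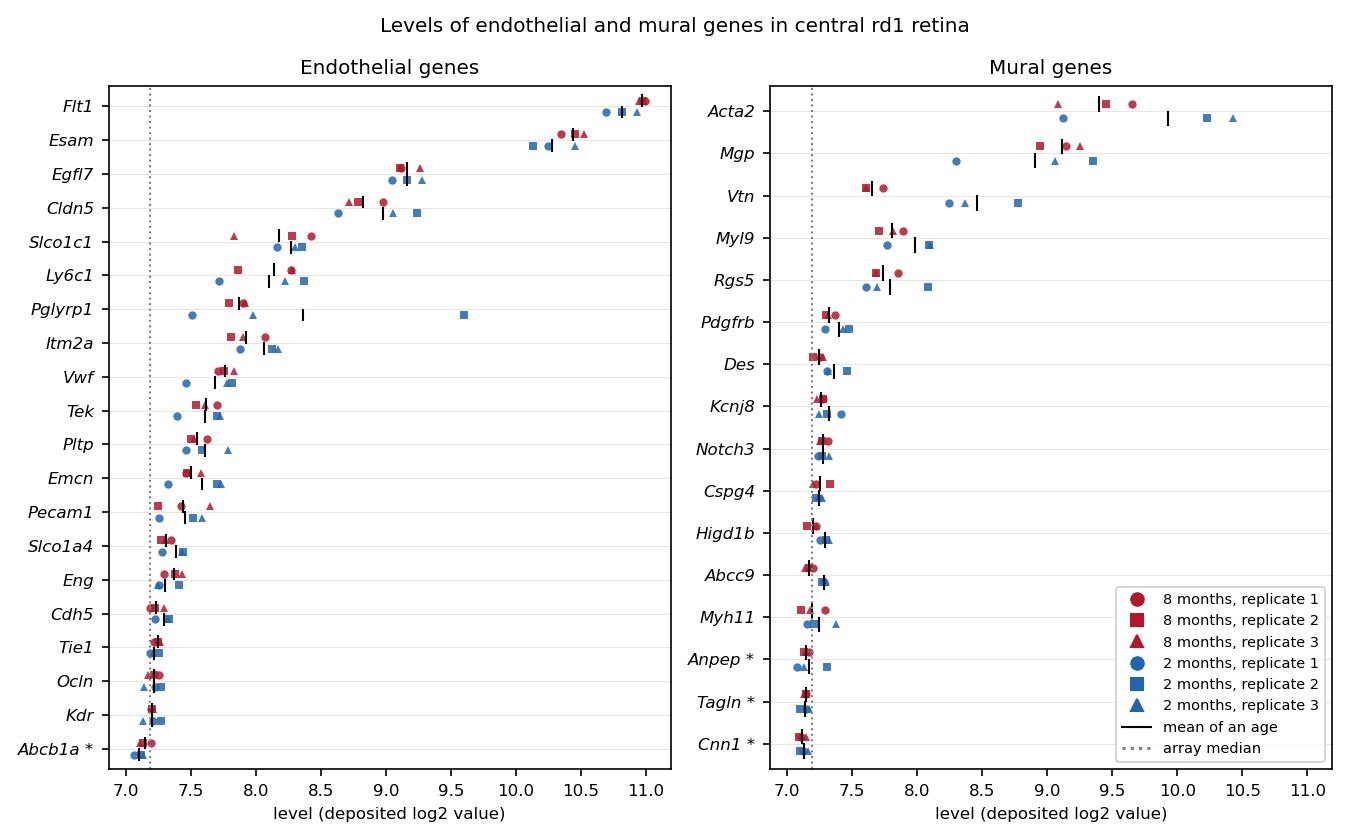
Levels of the 20 endothelial genes (left) and 16 mural genes (right) with a probe, as deposited log2 values in each of the 3 samples at 8 months (red) and 3 at 2 months (blue), with black bars for the mean of each age and a dotted line at the array median of 7.19. Stars mark the 4 genes that did not pass the filter on dim probes. The signal also depends on the probe, so the order of genes is not an order of abundance. The ages overlap for most genes, and Vtn is the clearest exception.

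Levels are given as deposited log2 values, for which 7.19 was the median of the arrays and stands close to background. Several defining markers lay close to that value. Of the tested genes, 7 endothelial and 8 mural ones had a mean below 7.5, and 4 endothelial and 2 mural ones had a mean above 8.5. The endothelial cadherin Cdh5 averaged 7.24 ± 0.0533 at 8 months and 7.29 ± 0.0607 at 2 months (SD, n = 3 each), with a change of −0.06 (SE 0.0547). The pericyte receptor Pdgfrb averaged 7.33 ± 0.0348 at 8 months and 7.40 ± 0.0957 at 2 months. Of the genes that define contractile smooth muscle, the actin-binding Tagln and Cnn1 did not pass the filter, with all values between 7.09 and 7.17. Myh11, the heavy chain of smooth muscle myosin, averaged 7.19 ± 0.0926 in the older and 7.24 ± 0.119 in the younger samples, with a change of −0.05 (SE 0.0772). The endothelial label therefore rests mostly on genes such as Flt1, Esam, Egfl7 and Cldn5, with a probe well above background. The smooth muscle label rests mostly on Acta2, which other contractile cells also express. The other kept probe of Flt1 averaged 7.22, and those of Egfl7 averaged 7.69 and 7.21. These 4 endothelial genes did not order the samples alike. For Esam 2 month replicate 2 was the lowest sample, and for Cldn5 it was the highest.

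Among the receptors for vascular growth factors, Flt1, a receptor that binds vascular endothelial growth factor (VEGF) and limits its signal, was at 10.99, 10.98 and 10.94 in the 8 month samples and at 10.69, 10.81 and 10.93 in the 2 month samples. All 3 samples at 8 months lay above all 3 at 2 months, although the nearest values of the ages almost touched. The change was 0.16 (SE 0.0677, 95% interval −0.0005 to 0.32, limma adjusted p = 0.479), and the second probe of Flt1, close to background, had a change of 0.07. Of the 19 tested endothelial genes, Flt1 was the only member whose ages did not overlap, where 15.0% of all tested genes had no overlap. Without 2 month replicate 1 its change was 0.10 (adjusted p = 0.708).

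Kdr, the main signalling receptor for VEGF, had a mean of 7.20 ± 0.00704 in the older and 7.20 ± 0.0707 in the younger samples, which is at the array median. Tek and Tie1 are the receptor of the angiopoietins and its partner. Tek was at 7.71, 7.54 and 7.61 in the 8 month samples, against 7.40, 7.70 and 7.73 in the 2 month samples. The values overlapped fully, with a change of 0.01 (SE 0.0959, 95% interval −0.22 to 0.23). Tie1 had a change of 0.03 (SE 0.0460) and Eng, a co-receptor for transforming growth factor beta, a change of 0.07 (SE 0.0652), both near background. Egfl7, a protein that endothelial cells secrete into their matrix, averaged 9.16 ± 0.0881 at 8 months and 9.16 ± 0.116 at 2 months. Its change of 0.0004 had a 95% interval of −0.18 to 0.18, and its other probes had changes of −0.03 and −0.01.

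The promoter of Flt1 is printed because its ages did not overlap. It is the stretch of GRCm38.p6 in the RefSeq promoter table from 250 bases before to 50 bases after the start site that table uses, 5′ to 3′. For Flt1 that site lies 427 bases inside the gene's outermost annotated start.
Flt1, chr5:147725962-147726261, minus strand: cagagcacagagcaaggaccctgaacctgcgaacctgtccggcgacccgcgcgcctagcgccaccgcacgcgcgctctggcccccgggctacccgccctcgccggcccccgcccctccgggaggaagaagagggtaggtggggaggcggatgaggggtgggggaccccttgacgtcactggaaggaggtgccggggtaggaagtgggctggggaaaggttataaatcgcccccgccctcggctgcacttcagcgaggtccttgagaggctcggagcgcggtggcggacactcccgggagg
It held neither of the motifs searched for endothelial genes, the ETS core CCGGAA and a repeat of GGAA with no base between the copies, on either strand. A site of the first can overlap the second. Of 20 promoters of 16 endothelial genes in the table, 2 held the ETS core (Kdr and Ocln) and 4 the repeat (Egfl7, Itm2a, Ly6c1 and Slco1c1). Among 32851 promoters in all, 14.9% held the ETS core and 3.79% the repeat.

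Of the junction and adhesion genes, Esam, an adhesion molecule of endothelial tight junctions, was at 10.35, 10.46 and 10.53 in the 8 month samples and at 10.25, 10.13 and 10.46 in the 2 month samples. The 2 month replicates 1 and 2 were the lowest, replicate 3 fell inside the range of the older samples, and the change was 0.16 (SE 0.0915, limma adjusted p = 0.632). With the level of red blood cell markers as a covariate it was −0.11. The level of these markers did not overlap between the ages, at 8.95 to 9.00 in the 8 month and 9.81 to 10.9 in the 2 month samples. Here and below, this covariate can therefore not be fully told apart from age. Cldn5, the claudin that seals the barrier, was at 8.98, 8.79 and 8.72 in the 8 month samples, against 8.63, 9.24 and 9.06 in the 2 month samples. The 2 month samples held both the highest and the lowest value, and the change was −0.15 (SE 0.151, 95% interval −0.50 to 0.21). Its value was 0.27 with the red blood cell markers as a covariate and −0.32 without 2 month replicate 1.

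Pecam1, an adhesion molecule at endothelial contacts, had a change of −0.01 (SE 0.121), with its lowest values of 7.25 in 8 month replicate 2 and 2 month replicate 1. Ocln, which codes for the tight junction protein occludin, averaged 7.22 ± 0.0433 at 8 months and 7.21 ± 0.0658 at 2 months, near background, and is also expressed in the pigment epithelium. Emcn, a sialomucin of capillaries and veins, had a change of −0.08 (SE 0.108). Vwf, the clotting factor stored in endothelial granules, had a change of 0.08 (SE 0.0971). For these 4 genes the ages overlapped.

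Of the transporters, 0 passed the test and the ages overlapped in each. Slco1c1, which carries thyroid hormone, was at 8.42, 8.28 and 7.83 in the 8 month samples, against 8.17, 8.35 and 8.30 in the 2 month samples. The value of 7.83 in 8 month replicate 3 was the lowest of the 6, and the change was −0.10 (SE 0.144). Slco1a4, an organic anion transporter, had a change of −0.08 (SE 0.0603) and Pltp, a phospholipid transfer protein, one of −0.06 (SE 0.0855). Abcb1a, the drug efflux pump of brain and retinal capillaries, did not pass the filter and averaged 7.15 at 8 months and 7.11 at 2 months.

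Itm2a, a membrane protein found in barrier endothelium, had a change of −0.13 (SE 0.0972). Ly6c1, a surface protein of endothelial cells and monocytes, was at 8.27, 7.86 and 8.28 in the 8 month samples and at 7.72, 8.37 and 8.22 in the 2 month samples, with full overlap and a change of 0.04 (SE 0.182). It has a close paralog, and the array files do not show whether the probe separates them. Pglyrp1, a peptidoglycan recognition protein made in barrier endothelium and in neutrophils, was at 7.90, 7.79 and 7.92 in the 8 month samples, against 7.51, 9.60 and 7.98 in the 2 month samples. The value of 9.60 in 2 month replicate 2 alone produced the change of −0.49 (SE 0.471), which was 0.13 without that sample, and its second probe had a change of −0.03. That sample also had the highest level of all 4 tested red blood cell markers, with the beta-globin gene Hbb-bs at 12.4, while its values in replicates 1 and 3 of that age were 11.2 and 10.9. With the level of these markers as a covariate the change of Pglyrp1 was 1.66 (limma adjusted p = 0.412).

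**Figure D2:**
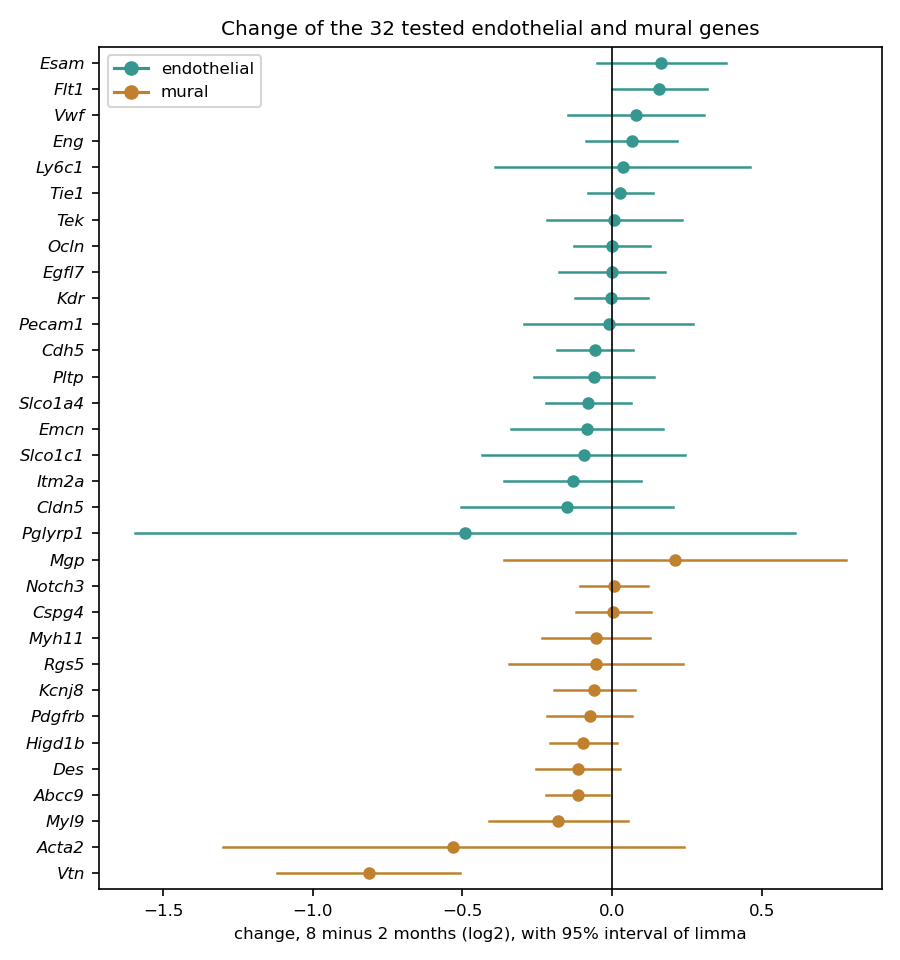
Change of each tested gene at 8 months relative to 2 months on the log2 scale (points) with the 95% interval from limma (lines), endothelial genes above mural genes. All endothelial intervals include 0, that of Flt1 by a narrow margin, and among the mural genes those of Vtn and Abcc9 do not.

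The endothelial genes spread more widely at 2 than at 8 months. The SD over the 2 month samples was larger than that over the 8 month samples for 17 of the 19 tested endothelial genes, or 89.5%, and for 10 of the 13 mural genes, or 76.9%, beside 54.8% of all tested genes. The median SD of the endothelial genes was 0.0683 at 8 months and 0.157 at 2 months, beside 0.0697 and 0.0762 over all genes. The low values often fell in the same sample, since 2 month replicate 1 was the lowest for 10 of the 19 genes and the highest for 0. The same sample was the lowest for 16.0% of all tested genes.

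The mean level of the 19 endothelial genes was 8.01 to 8.08 in the 8 month samples and 7.90 to 8.22 in the 2 month samples, so that the older samples lay within the range of the younger. Relative to each gene's mean, the median endothelial gene stood at −0.01, −0.05 and 0.03 in the 8 month samples and at −0.12, 0.07 and 0.09 in the 2 month samples. Without 2 month replicate 1 the median change of the endothelial genes was −0.10, and with any other sample left out it was between −0.03 and 0.03. A second list of 30 endothelial genes that are not among the 21, of which 18 were tested, gave the samples a like order. There 2 month replicate 1 was lowest for 10 of 18 genes, at −0.11, and 2 month replicate 3 highest for 9 of 18, at 0.07. Over all tested genes these shares were 16% and 17.1%. Among the 19 genes 2 month replicate 2 was most often the highest, for 7. There 2 month replicate 3 and 8 month replicate 3 were each highest for 5.

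**Figure D3:**
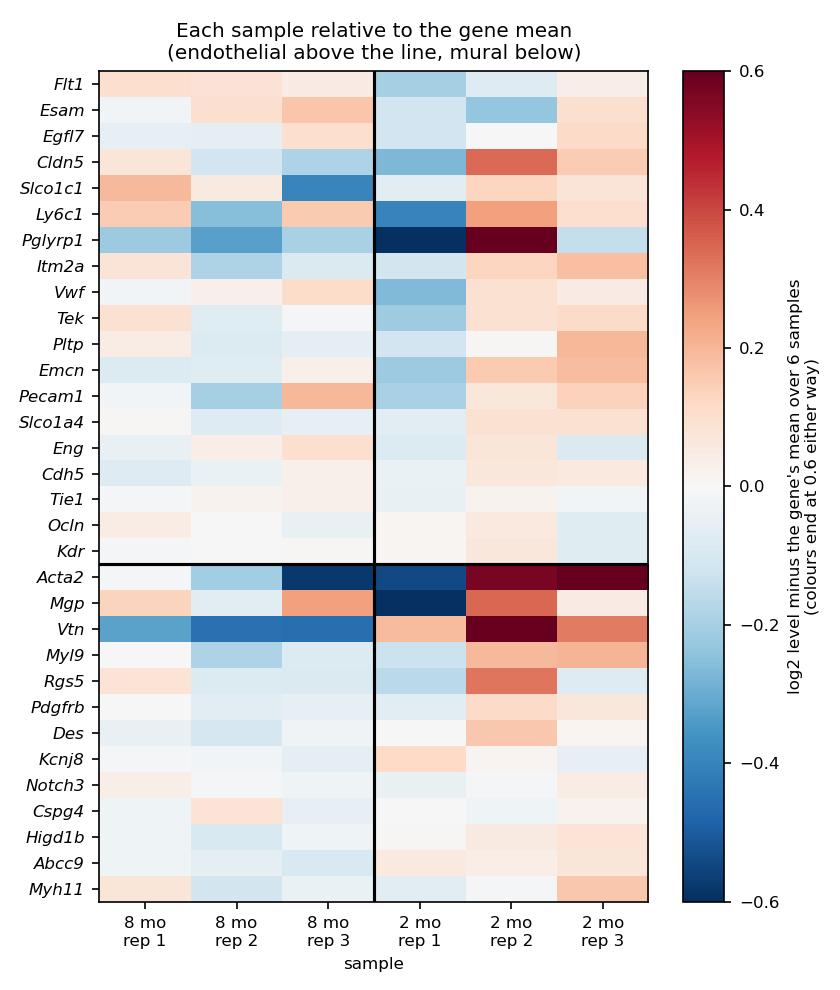
Each tested gene (rows, endothelial above the black line and mural below it) in each sample (columns, 8 months left and 2 months right), as the log2 level minus the mean of the gene over all 6 samples. Most endothelial rows are blue in 2 month replicate 1 and red in 2 month replicates 2 and 3, while Vtn separates the ages.

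Of the mural genes, Vtn had the largest change and came nearest to the threshold. It codes for vitronectin, an adhesive glycoprotein of plasma and matrix that pericytes of the mouse brain express strongly, and that photoreceptors express in the human retina. Vtn was at 7.74, 7.61 and 7.60 in the 8 month samples and at 8.24, 8.78 and 8.37 in the 2 month samples. The lowest 2 month sample was clearly above the highest 8 month sample, and the level at 8 months was 0.569 times that at 2 months. The change was −0.81 (SE 0.130, 95% interval −1.12 to −0.51, limma adjusted p = 0.087). It was called with a variance prior that follows intensity (adjusted p = 0.00895) and with a stricter filter on dim probes (adjusted p = 0.00977). That filter lay at the 75th percentile of the arrays, 7.76, which only the 2 month values of Vtn exceeded. Vtn thus passed it through the age where it was high, so that call is no separate support. With red blood cell markers as a covariate the change was −0.28 (adjusted p = 0.782). That covariate did not overlap between the ages and left 0 genes called over the whole array, so it and age cannot be fully told apart.

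Markers of some other cells were also lower at 8 months. All 12 tested photoreceptor markers had negative changes, and 3 of them were called, beside 0.0664% of all tested genes called lower. Their mean level was 8.41 to 8.93 in the 8 month samples and 9.53 to 9.94 in the 2 month samples. The 4 tested red blood cell markers averaged 8.95 to 9.00 in the 8 month samples and 9.81 to 10.9 in the 2 month samples. Of these 2 ranges, neither overlapped between the ages, as was the case for Vtn. Over all tested genes 7.59% had every 8 month value below every 2 month value. Within each age neither list ordered the samples as Vtn did, and the part of photoreceptors in the Vtn result was not tested. The cone opsin Opn1mw had a change of −2.17 (SE 0.442, limma adjusted p = 0.143) and Crx, a photoreceptor transcription factor, one of −0.18 (SE 0.0939). Opn1mw and Crx, the brightest photoreceptor markers, are not among the 3 called. Hbb-bt, a beta-globin gene, had a change of −1.69 (SE 0.369), and its 4 kept probes had changes from −1.69 to −0.20. The other pericyte markers did not show a difference of that size, and that of Pdgfrb, the receptor for platelet-derived growth factor, was −0.07 (SE 0.0608, 95% interval −0.22 to 0.07).

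Abcc9 and Kcnj8 code for the regulatory and pore subunits of the ATP-sensitive potassium channel of pericytes. Abcc9 was at 7.20, 7.17 and 7.14 in the 8 month samples, against 7.29, 7.27 and 7.30 in the 2 month samples. The ages did not overlap, but all values lay within about 0.1 of the array median, and the change was −0.12 (SE 0.0452, limma adjusted p = 0.433). Its other 3 probes were below the filter, and their changes were positive, at 0.02, 0.03 and 0.02. Kcnj8 had a change of −0.06 (SE 0.0572) with overlapping ages.

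Higd1b, a mitochondrial protein enriched in pericytes, was at 7.22, 7.15 and 7.22 in the 8 month samples and at 7.25, 7.30 and 7.33 in the 2 month samples, with no overlap and a change of −0.10 (SE 0.0482, adjusted p = 0.576). Rgs5, a regulator of G protein signalling that marks pericytes, was at 7.85, 7.69 and 7.68 in the 8 month samples, against 7.61, 8.09 and 7.69 in the 2 month samples. The 2 month samples held both its highest and its lowest value, and the change was −0.05 (SE 0.124). Cspg4, the NG2 proteoglycan, and Notch3, the receptor that maintains arteriolar smooth muscle, had changes of 0.004 (SE 0.0535) and 0.01 (SE 0.0483). Anpep, a peptidase of brain pericytes, did not pass the filter and averaged 7.15 at 8 months and 7.17 at 2 months.

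In all, 4 of the 13 tested mural genes, Vtn, Abcc9, Higd1b and Des, had every 8 month value below every 2 month value, and 0 had the reverse order. Over all tested genes 7.59% had every 8 month value below every 2 month value and 7.45% the reverse. Apart from Vtn these genes lay close to background and had changes between −0.12 and −0.10, beside a median standard error of 0.0654 over all genes. Abcc9 and Higd1b passed the filter on dim probes only with their 2 month values, which were the higher ones. Their part in the count of 4 is therefore no separate support.

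Among the contractile genes Acta2, smooth muscle alpha-actin, was at 9.65, 9.45 and 9.08 in the 8 month samples, against 9.12, 10.23 and 10.43 in the 2 month samples. Replicates 2 and 3 at 2 months were the highest, while replicate 1 at 2 months lay near the lowest 8 month sample. The change was −0.53 (SE 0.328, limma adjusted p = 0.685) and ranged from −0.93 without 2 month replicate 1 to −0.28 without 2 month replicate 3. It was −0.14 with red blood cell markers as a covariate. The other 3 kept probes of Acta2 had changes of −0.28, −0.07 and −0.05. Actin genes are near-identical in their coding parts, and the files do not show which part each probe covers.

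Myl9, a regulatory light chain of smooth muscle myosin, was at 7.89, 7.71 and 7.82 in the 8 month samples and at 7.77, 8.09 and 8.10 in the 2 month samples. Its pattern was that of Acta2, with 2 month replicates 2 and 3 highest and 2 month replicate 1 within the 8 month range, and the change was −0.18 (SE 0.0996, adjusted p = 0.632). It was −0.03 with red blood cell markers as a covariate and −0.29 without 2 month replicate 1. The 12 tested markers of pigment epithelium and melanocytes, cells of the tissue next to the retina, averaged 8.45 to 9.01 in the 8 month samples and 8.96 to 9.63 in the 2 month samples, with the highest value in 2 month replicate 2. The changes of Rgr, an opsin of the pigment epithelium, and of Ttr, transthyretin, were −0.50 (SE 0.297) and −0.21 (SE 0.180). The part of these cells in the Acta2 and Myl9 values was not tested.

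The promoters of Acta2 and Myl9 are shown because these genes varied together between samples, and that of Vtn because its change was the largest. Capitals mark the CArG box, the binding sequence of serum response factor in smooth muscle genes, searched on both strands.
Acta2, chr19:34255324-34255623, minus strand: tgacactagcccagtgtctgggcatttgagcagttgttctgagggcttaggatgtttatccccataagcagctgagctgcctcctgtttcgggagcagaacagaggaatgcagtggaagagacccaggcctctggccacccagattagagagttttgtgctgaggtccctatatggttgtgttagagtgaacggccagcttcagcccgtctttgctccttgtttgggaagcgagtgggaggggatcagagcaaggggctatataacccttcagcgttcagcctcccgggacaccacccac
Myl9, chr2:156775214-156775513, plus strand: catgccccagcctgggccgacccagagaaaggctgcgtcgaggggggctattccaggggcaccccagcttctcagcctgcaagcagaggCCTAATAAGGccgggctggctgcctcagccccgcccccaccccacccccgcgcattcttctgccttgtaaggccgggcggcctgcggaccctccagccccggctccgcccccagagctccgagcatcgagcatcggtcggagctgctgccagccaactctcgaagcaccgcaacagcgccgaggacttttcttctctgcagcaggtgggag
Vtn, chr11:78498870-78499169, plus strand: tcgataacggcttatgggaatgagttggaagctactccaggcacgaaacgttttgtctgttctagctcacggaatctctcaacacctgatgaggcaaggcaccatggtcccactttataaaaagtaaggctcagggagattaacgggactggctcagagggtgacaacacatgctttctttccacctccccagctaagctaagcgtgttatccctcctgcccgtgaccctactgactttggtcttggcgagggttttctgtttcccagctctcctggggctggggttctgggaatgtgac
Of 11 mural genes in the promoter table, 1, Myl9, held a full CArG box in this window, and the box starts 161 bases before the start site of the table. That site lies 56 bases inside the outermost annotated start of Myl9, 212 bases inside that of Acta2 and at that of Vtn. Such a box was held by 1.63% of all 32851 promoters and by 0 of the 20 endothelial ones. The windows of Acta2 and Vtn held no exact match to these motifs, which says only that those letters are not in these 300 bases. That of Acta2 holds ccctatatgg and ccttgtttgg, each 1 base off the exact CArG form and therefore not counted.

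Des, the intermediate filament desmin of muscle cells, had every 8 month sample (7.25, 7.20 and 7.28) below every 2 month sample (7.30, 7.46 and 7.31). The change was −0.11 (SE 0.0596, adjusted p = 0.598), and the highest value was that of 2 month replicate 2. Des is also expressed in skeletal muscle, whose 9 tested markers averaged 7.28 to 7.48 in the 8 month samples and 7.33 to 8.74 in the 2 month samples. Their mean was highest in 2 month replicate 2 as well, and with their level as a covariate the change of Des was −0.05. With red blood cell markers as a covariate it was 0.07. The fast muscle light chain Myl1 was at 11.1 in that sample, against at most 7.52 in the 8 month samples, and skeletal actin Acta1 at 8.89, against at most 8.08.

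Mgp, the matrix Gla protein that keeps vessel walls from calcifying, was at 9.14, 8.94 and 9.26 in the 8 month samples, against 8.30, 9.35 and 9.06 in the 2 month samples. Its change of 0.21 (SE 0.244) was −0.09 without 2 month replicate 1, which had the lowest value, and 0.43 without 2 month replicate 2, which had the highest. With red blood cell markers as a covariate it was 0.93 (limma adjusted p = 0.739). The lowest value falls in the sample that was also the lowest for 10 of the 19 endothelial genes.

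**Figure D4:**
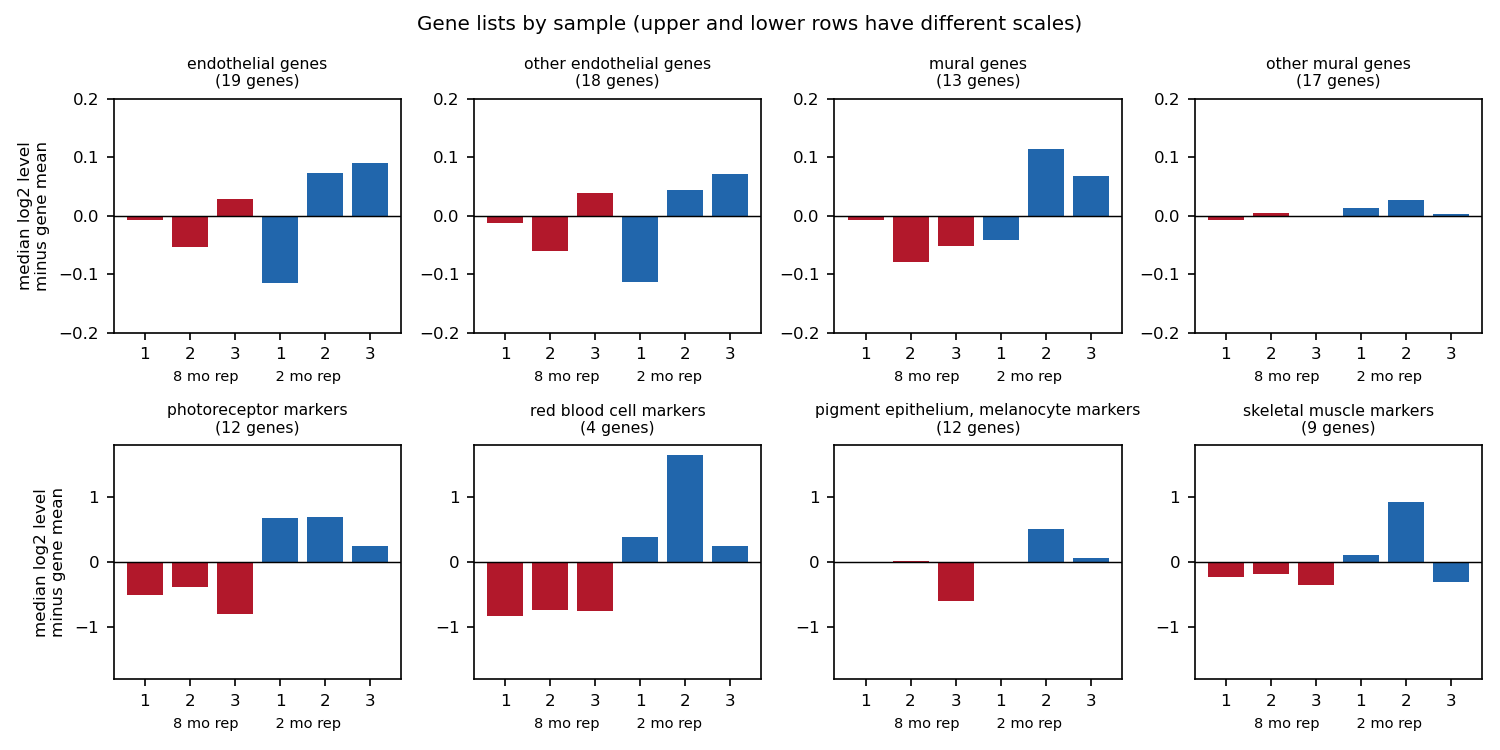
Median over the genes of each list of the log2 level minus the gene mean, for each sample (8 months red, 2 months blue). The upper row shows the vascular lists on a scale of ±0.2, and the lower row shows markers of other cells on a wider scale. Endothelial genes are lowest in 2 month replicate 1, photoreceptor and red blood cell markers are higher in all 2 month samples, and pigment and skeletal muscle markers peak in 2 month replicate 2.

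Genes that act with these vascular markers were read from the same fit, and none passed at an adjusted p below 0.05 in 7 further lists. In the list of the barrier and of norrin signalling, the Wnt-type pathway that induces it in the retina, 22 genes were tested, with 9 positive and 13 negative changes, between −0.46 and 0.24. The 8 month values were all above the 2 month values for 4 of them and all below for 3, beside 7.45% and 7.59% of all tested genes. Before adjustment, 2 higher and 4 lower genes were below a limma p of 0.05, beside 5.10% and 5.34% of all tested genes. The genes named next are those with the smallest p, and Slc2a1, and all 4 had negative changes. Mfsd2a, a lipid transporter that limits transcytosis in barrier endothelium, was at 7.88, 7.68 and 7.80 in the 8 month samples and at 8.25, 8.28 and 8.17 in the 2 month samples. Its change of −0.44 (SE 0.0646) came with no overlap and an adjusted p of 0.0625 (limma). Tfrc, the transferrin receptor, had a change of −0.46 (SE 0.0930, adjusted p = 0.142), and Apcdd1, a Wnt target that tunes the signal in retinal vessels, one of −0.27 (SE 0.0680, adjusted p = 0.226). The second kept probes of Tfrc and Apcdd1 had changes of −0.42 and −0.10. The glucose transporter Slc2a1 had a change of −0.21 (SE 0.0862, adjusted p = 0.469). Which cells of the retina these 4 changes came from, endothelial or other, was not tested.

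Plvap, which forms the diaphragms of fenestrated endothelium and is low in an intact barrier, was at 9.02, 9.32 and 8.98 in the 8 month samples and at 8.75, 8.71 and 8.86 in the 2 month samples. The ages did not overlap, and the change was 0.34 (SE 0.0953, adjusted p = 0.273). Choroidal vessels next to the retina also express Plvap. In its list of 10 tested genes Plat, tissue plasminogen activator, had a change of 0.28 (SE 0.0707), and Vcam1, an adhesion molecule for leukocytes, one of −0.51 (SE 0.182).

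Of 18 tested genes of VEGF, angiopoietin and Notch signalling, 13 had negative changes, or 72.2%, beside 49.8% of all tested genes. The 8 month values were all below the 2 month values for 5 of the 18 and all above for 0, beside 7.59% and 7.45% of all tested genes. Vegfa had a change of −0.25 (SE 0.0922, adjusted p = 0.407), Angpt2, an antagonist of Tek, one of −0.25 (SE 0.0812), Nrarp, a feedback inhibitor of Notch, one of −0.36 (SE 0.0950) and Angptl4 one of −0.16 (SE 0.0470). These 4 are among the 5 without overlap. Pdgfb, the endothelial ligand of Pdgfrb, had a change of 0.10 (SE 0.0895). The 17 tested genes of a second mural list had a median change of −0.01, with Kcnmb1 at 0.09 (SE 0.0439), Cox4i2 at −0.24 (SE 0.155) and Gucy1b1 at 0.18 (SE 0.116), and the 18 of the second endothelial list one of −0.03, with Cd34 at −0.07 (SE 0.0513), Sox7 at −0.08 (SE 0.0530) and Arhgef15 at 0.17 (SE 0.120).

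The median change was 0.06 over 9 arterial and venous genes, with Unc5b at 0.15 (SE 0.0721), Ephb4 at −0.12 (SE 0.0631) and Bmx at 0.06 (SE 0.0465). It was −0.03 over 11 genes of the response to low oxygen, with Ankrd37 at −0.28 (SE 0.0750), Pgk1 at 0.24 (SE 0.0778) and Ndrg1 at −0.24 (SE 0.0987). The second kept probes of Pgk1 and Ndrg1 had changes of 0.08 and 0.02. The 11 tested inner retina markers averaged 10.95 to 10.99 in the 8 month and 10.95 to 10.98 in the 2 month samples. The 2 brightest of them were Rlbp1, at 12.4 to 12.9 in all samples, and Slc1a3, at 12.7 to 13.1. The 4 tested fibroblast markers averaged 7.80 to 8.14 in the 8 month samples and 7.74 to 8.23 in the 2 month samples, and the 8 tested markers of microglia and macrophages 7.73 to 7.80 in the 8 month samples and 7.64 to 7.92 in the 2 month samples. Of these, the fibroblast genes Dcn and Pdgfra had changes of −0.15 (SE 0.368) and 0.08 (SE 0.157), the complement gene C1qb one of 0.002 (SE 0.176) and the receptor Csf1r one of −0.32 (SE 0.0808, limma adjusted p = 0.226). The second kept probe of Csf1r had a change of −0.02.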

How the data were processed

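The deposited table held 1 value per probe and array for 45281 probes, on a log2 scale as read from its range of 6.98 to 14.5. The authors' normalization is not given in the sources used here, but the deposited columns agree within 0.00307 at every rank, as after quantile normalization. Background correction and software are likewise not given, and a variance-stabilising transform would look alike and compress changes of dim genes. Each sample's age and replicate number come from its title.

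Probes above the 50th percentile of their array on at least 3 arrays were kept, 22458 in all. Gene names came from the GEO platform table, whose symbols may be dated. Of 45281 probes, 34885 had 1 symbol, 18 several and 10378 none. RefSeq gene records (GRCm38.p6) updated 0 symbols, and 78 named probes had no match there. The highest-mean probe represented a gene. Changes, 8 minus 2 months, went into limma 3.58.1 (R 4.3.3), with lmFit and eBayes (4 residual and 3.311 prior degrees of freedom), two-sided, over 12046 genes, at an adjusted p of 0.05. The 95% intervals are not adjusted. With 3 arrays per age, their number limits the precision.

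The members, lists and rules were chosen with earlier results of these data known. All members are named or counted. From the other vascular lists the 3 genes with the smallest p are named, with Plvap, Vegfa, Mfsd2a, Slc2a1 and Pdgfb, and, from each list of other cells, the 2 genes with the highest mean. Of 258 list entries 10 matched no probe. The fit was tested on simulated data. Alternatives were other normalizations, filters, probe rules and priors, a replicate block, blood or muscle markers as covariates, leaving out each array and, added after seeing the data, 2 month replicates 1 and 2 averaged.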

Additional observations from a re-analysis of the deposited data

How the results depend on the processing

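Under each of 17 alternatives 0 endothelial members were called. Repeated quantile normalization and median centring could hardly change values that already agreed within 0.00307 at every rank. Leaving out an array or adding a covariate leaves fewer degrees of freedom, so a lack of calls there says little. Of the mural members, 1, Vtn, was called with the filter at the 75th percentile and 1, again Vtn, with an intensity trend in the variance prior. With the filter at the 75th percentile 4 mural genes were tested and their median change was −0.355. Vtn, 1 of these 4, passed that filter only through its 2 month values. The endothelial median was 0.0931 with the level of red blood cell markers as a covariate, and leaving out single arrays gave −0.0975 (without 2 month replicate 1) to 0.0303 (without 2 month replicate 2). The red blood cell markers did not overlap between the ages, so that covariate and age cannot be fully told apart. The mural median without single arrays was −0.116 to −0.065. Apart from the fewer genes tested under the stricter filter, the cause of these shifts was not tested. Over all genes, 19 higher and 8 lower calls became 5 and 2 without a filter, 38 and 35 with the stricter filter, 44 and 48 with the trend, 0 and 0 with red blood cell markers and 2 and 0 with skeletal muscle markers as a covariate. Without single arrays there were 2 to 12 higher and 0 to 19 lower calls. With the replicate block there were 14 higher and 18 lower calls, 0 members of either class were called, and the medians were −0.002129 and −0.07423. With 2 month replicates 1 and 2 averaged into 1 sample, an alternative chosen after seeing the data, there were 2 higher and 0 lower calls over all genes, 0 members were called, Vtn had an adjusted p of 0.0512, and the medians were −0.0287 and −0.0871. Same-numbered samples had correlations of their deviations of 0.0239, 0.139 and 0.16, above the −0.154 to 0.00198 of differently numbered ones. The main fit did not take the numbers to pair samples, and whether they do was not tested. The sign of the change turned for 21 of the 32 members under at least 1 alternative. The signal limits the comparison, since 15 of the tested members had a mean within about 0.3 of the array median.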
